A study of Sus scrofa with 6 samples.

Results

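Histone-modifying enzymes and Polycomb subunits were examined in fibroblasts of the Small Xiang Pig (Sus scrofa) and in induced pluripotent stem cells derived from them. The members were chosen by gene symbol: the KDM, KMT, SETD, PRDM, HDAC, SIRT, EHMT, EZH, CBX, PHC, PCGF, SUV39, NSD, ASXL and KAT families, with EED, SUZ12, RING1, RNF2, BMI1, EP300 and CREBBP. A total of 88 genes had a row, of 25322 gene IDs in the deposited table, and 1 further PRDM gene was left out by the rule. RNA sequencing covered 6 libraries in 3 groups of 2: PEF, the progenitor fibroblasts at passage 5; P5, induced pluripotent cells (piPSCs) at passage 5, labelled Rex1 positive; and P10, piPSCs at passage 10, labelled Rex1 negative. Rex1, a zinc finger factor, marks undifferentiated cells. The labels give no reprogramming factors and no culture additives, although the series title names epigenetic modifiers, so whether an introduced gene or an inhibitor acts on any member is unknown here. Passage and Rex1 label changed together and cannot be told apart.

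Histone tails carry acetyl and methyl groups that are placed by acetyltransferases and methyltransferases and removed by deacetylases and demethylases. Polycomb repressive complex 2 (PRC2) methylates lysine 27 of histone H3 through EZH1 or EZH2, and Polycomb repressive complex 1 (PRC1) ubiquitinates histone H2A through RING1 or RNF2. Both keep developmental genes silent, and their subunits have paralogs that replace one another between cell types.

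Each gene had 1 deposited FPKM value per group (fragments scaled to gene length and library size by the authors), with no spread between libraries. None of the differences below therefore has a replicate check or a p-value. A difference is given on the log2(FPKM + 1) scale. A gene is called higher or lower where 2 groups differ by at least 1 on it, a 2-fold difference in FPKM + 1. This is the 2-fold limit below, and some members more than 2-fold apart in FPKM itself fall short of it. Compared were the 13998 IDs whose highest group value reached an FPKM of 1, among them 81 of the 88 members. The other 7 were HDAC1, HDAC9 and SETD6, listed at 0 in all 3 groups, and SUV39H2, PRDM6, PRDM7 and SETD9, below 1 everywhere. An exact 0 can be a failed estimate, and HDAC1 is a gene that most dividing cells use. Positions are those of the table on susScr3. A locus shared with other IDs, as for 21 of the 88 members, makes the division of reads uncertain.

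The labels were checked against markers. Of 12 fibroblast markers listed, 10 had a row, and they summed to an FPKM of 8477 in PEF, 750.3 in P5 and 1027 in P10, with FN1 listed at 0 in PEF. Without VIM, which is not confined to fibroblasts, the other 9 summed to 3074, 161.8 and 58.48. Of 10 pluripotency markers 4 had a row (LIN28A, DNMT3B, EPCAM and CDH1), and they summed to 2.23, 548 and 243. LIN28A made up most of the P10 sum, at 0.325, 299 and 204, and the labels do not say whether it was introduced. DNMT3B was at 1.57, 159 and 24.4, EPCAM at 0.227, 41.6 and 6.07 and CDH1 at 0.103, 48.7 and 7.89. The gene of Rex1, POU5F1, NANOG and SOX2 were not analysed here. Of 10 neural markers 8 had a row, with sums of 108, 438 and 989. Of 7 epithelial markers 6 had a row, with sums of 10.6, 1462 and 1337, and CLDN7 was listed at 0 in all groups. Without the keratins KRT8 and KRT18 the other 4 summed to 1.34, 82.5 and 3.86. Endothelial markers (4 of 6 with a row) summed to 19.5, 21.5 and 5.49. Of these, 3 were higher in P5 than PEF and 1 was lower, ENG, at 16.7 in PEF and 2.91 in P5. Of the 3, KDR and TEK were below 1 FPKM in PEF and passed the filter only through the piPSCs. Immune markers (4 of 6) summed to 4.24, 2.06 and 4.44, with PTPRC and CSF1R listed at 0 in PEF, CSF1R in P5 and PTPRC in P10. Muscle markers (5 of 6) summed to 7112, 68.9 and 122, with MYOD1 listed at 0 in P5. In PEF, ACTA2 stood at 4863, TAGLN at 1506, DES at 727, MYH11 at 16.0 and MYOD1 at 0.132. In bulk RNA, fewer cells of a type and less RNA per cell cannot be told apart, and the part of cell makeup in the differences below was not tested.

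Most members differed little between the groups. In P5 minus PEF, 14 of the 81 members were higher and 9 lower, 28.4%, against 41% of all IDs compared (21.4% higher and 19.6% lower). In P10 minus PEF, 12 were higher and 3 lower, 18.5%, against 38.5% of all IDs (19.1% higher and 19.3% lower). In P10 minus P5, 2 were higher and 2 lower, 4.94%, against 16.1% of all IDs (7.57% higher and 8.48% lower). The members' shares were thus below the background in each comparison, although no test of this was possible. The median absolute difference was 0.64, 0.55 and 0.27 for members in the 3 comparisons, and 0.80, 0.75 and 0.44 for all IDs. Members were also somewhat more highly expressed, with a median FPKM of 11.7 in PEF, 11.5 in P5 and 12.1 in P10 against 8.11, 7.92 and 7.78 for all IDs compared. Among IDs at 5 FPKM or more in the higher group, a limit set after the data were seen, the shares were 32.3% of members against 44.4% of IDs in P5 minus PEF. They were 22.6% against 41% in P10 minus PEF, and 4.76% against 17% in P10 minus P5.

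The signed median of the members was 0.30 in P5 minus PEF, 0.33 in P10 minus PEF and 0.04 in P10 minus P5, beside 0.09, 0.06 and -0.05 for all IDs. The split of calls depended on the scaling of the columns. Columns were also scaled to a common sum without mitochondrial genes. Then 26 members were higher and 4 lower in P5 than PEF, 17 and 1 in P10 than PEF, and 2 and 4 in P10 than P5. All IDs compared had 30.7% higher and 14% lower, 23.9% and 15.2%, and 6.2% and 11.3% under it. That scaling moved the median of all IDs by 0.36, 0.22 and -0.13, and the members' medians relative to all IDs were 0.22, 0.29 and 0.08, against 0.22, 0.27 and 0.09 as deposited. Quantile normalization gave 16 higher and 1 lower in P10 minus PEF and 5 and 2 in P10 minus P5. For all IDs it gave 18.3% and 18.5%, and 8.74% and 8.64%. Median scaling gave 5 and 1 in P10 minus P5, and trimmed-mean scaling 4 and 2. For all IDs these gave 8.47% and 7.74%, and 8.35% and 7.88%. No called member changed sign under any of the alternatives run, but calls near the limit were lost and others were gained. The scaling without mitochondrial genes ended calls that included those of KMT2A, KMT2E, HDAC7 and PHC3 in P5 minus PEF and of SIRT2 and PHC3 in P10 minus PEF. Quantile normalization ended calls that included those of KMT2A, HDAC7 and PRDM1 in P5 minus PEF and of SIRT2, PHC3 and PRDM13 in P10 minus PEF. A pseudocount of 5 ended further calls, among them those of CBX1, KDM4C, PCGF6, SETD4, PRDM13 and PRDM16 in P5 minus PEF, of KDM1A in P10 minus PEF, and of CBX2 and PRDM16 in P10 minus P5. EZH2, EHMT2, SETD7, PHC1, CBX2, KAT2A, KAT2B, NSD2, HDAC2 and PRDM12 kept their calls in P5 minus PEF under every alternative that retained them, apart from the 4-fold limit, which KAT2A, KAT2B, NSD2 and HDAC2 did not reach.

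**Figure D1:**
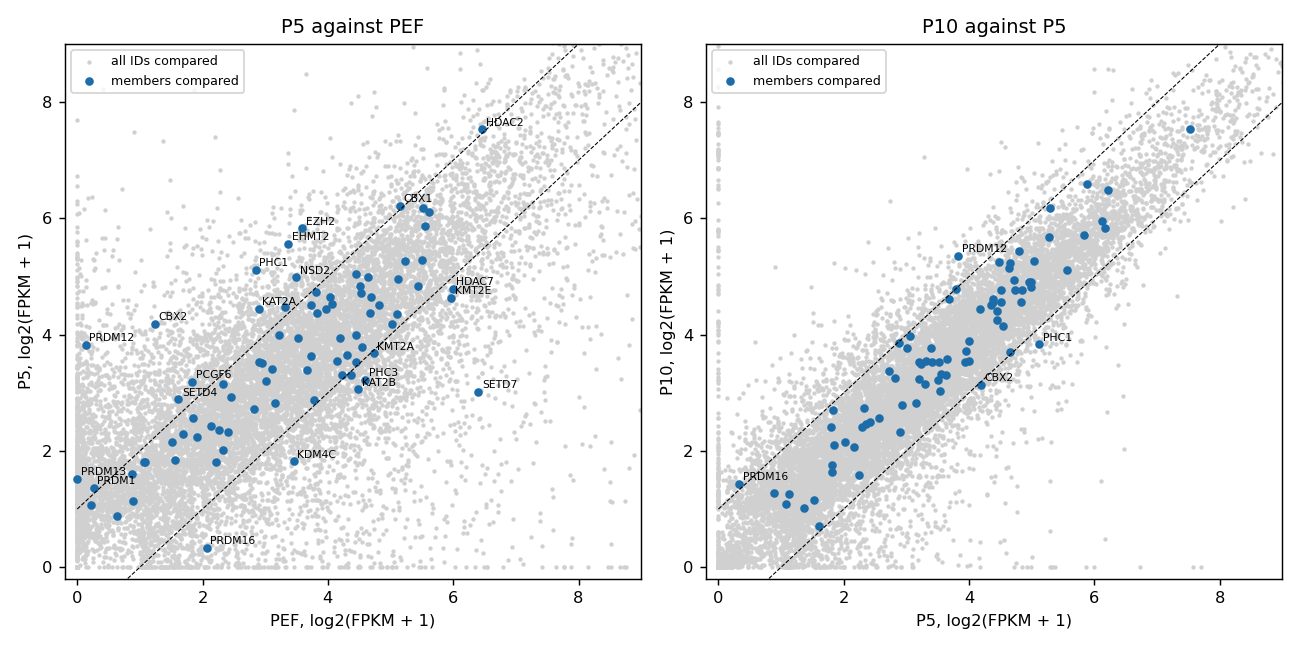
Each point is a gene ID at its log2(FPKM + 1) in PEF and P5 (left) or P5 and P10 (right), all 13998 IDs compared in grey and the 81 members in blue; dashed lines mark a difference of 1, values above 9 lie outside the plot, and most members at or past the lines are named. Of the 81 members, 23 (28.4%) lie at or past the lines on the left and 4 (4.94%) on the right. The shares of all IDs compared are 41% and 16.1%.

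Within the PRC2 core the catalytic paralogs EZH2 and EZH1 differed from PEF in opposite directions in P5. EZH1 was 2.02-fold lower in FPKM itself but short of the limit of 1 on the log2(FPKM + 1) scale. EZH2, the methyltransferase of PRC2 in dividing cells (ENSSSCG00000028840, chromosome 9, 120322752 to 120388808), was expressed at an FPKM of 11.0 in PEF, 55.9 in P5 and 51.4 in P10. It was 2.24 higher in P5 and 2.13 higher in P10 than in PEF, and the piPSC groups differed by -0.12. EZH1, its paralog with weaker methyltransferase activity, had an FPKM of 12.8, 6.33 and 13.5, a difference of -0.91 in P5 minus PEF and 0.99 in P10 minus P5, just under that limit. With a pseudocount of 0.1 both passed it, at -1.001 and 1.083. The latter also passed under median, trimmed-mean and quantile scaling, at 1.047, 1.037 and 1.067. Both were smaller with a pseudocount of 5, at -0.649 and 0.709. They were also smaller under the scaling without mitochondrial genes, at -0.51 and 0.849. EZH1 lies at a locus shared by 4 IDs. The scaffold subunits EED (10.4, 14.3 and 10.6) and SUZ12 (15.7, 22.2 and 16.7) were within 0.48 of PEF in both piPSC groups. So 1 of 4 core genes was higher and 0 lower in each comparison with PEF. The higher shares of all IDs compared were 21.4% in P5 minus PEF and 19.1% in P10 minus PEF.

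EZH2 is transcribed with the genes of cell division, which differed in the same direction. All 14 cell division genes with a row, of 22 listed, were higher in P5 than PEF, with a median of 2.50, and 13 of 14 in P10, with a median of 1.72. Their summed FPKM was 106, 717 and 493 in PEF, P5 and P10. Their part in the EZH2 values was not tested.

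Of 16 PRC1 genes listed, 10 had a row. In P5 minus PEF 3 were higher and 2 lower (median 0.18), against 21.4% and 19.6% of all IDs compared. In P10 minus PEF 2 were higher and 1 lower (median 0.13), against 19.1% and 19.3%. CBX2, a chromodomain subunit that reads methylated histone H3 (ENSSSCG00000024261, chromosome 12, 2640101 to 2648346), stood at an FPKM of 1.37 in PEF, 17.2 in P5 and 7.79 in P10. It was 2.94 and 1.89 higher than in PEF, and its difference in P10 minus P5 was -1.05, a call that median scaling ended.

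PHC1, a polyhomeotic subunit through which PRC1 complexes cluster (ENSSSCG00000000661, chromosome 5, 65355427 to 65377762), was at 6.21 in PEF, 33.8 in P5 and 13.2 in P10. The difference was 2.27 in P5 and 0.98 in P10, with -1.29 in P10 minus P5, so PHC1 was intermediate in P10. Its paralogs were lower than in PEF: PHC2 was at 42.4, 27.5 and 22.7, with -0.60 and -0.87, short of the 2-fold limit. PHC3, at a locus shared by 2 IDs, was at 23.1, 8.35 and 10.3, with -1.37 and -1.09.

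PCGF6, a RING finger partner of a variant PRC1 that keeps germline genes silent in mouse embryonic stem cells, was at 2.57 in PEF, 8.15 in P5 and 10.6 in P10. Both piPSC groups were above PEF, by 1.36 and 1.70, and differed from each other by 0.34. BMI1, the partner found in canonical PRC1, was at 17.2, 14.4 and 12.2, and PCGF3 at 24.6, 19.8 and 23.6. The catalytic subunits RING1 (44.9, 71.3 and 56.4) and RNF2 (20.8, 31.9 and 37.4) were higher than in PEF by 0.32 to 0.82, within the 2-fold limit. CBX6, CBX7, CBX8 and PCGF2 were not analysed here.

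CBX1, a heterochromatin protein 1 family member that binds methylated lysine 9 of histone H3, was at 34.6 in PEF, 73.3 in P5 and 88.4 in P10. It was just past the limit in P5, at 1.06, and at 1.33 in P10. The ASXL proteins, partners of the H2A deubiquitinase BAP1, were each within the limit but differed in opposite directions. ASXL1 was at 12.97, 25.7 and 26.1 and ASXL2, at a locus shared by 2 IDs, at 20.9, 10.5 and 10.6. Their differences in P5 minus PEF were 0.94 and -0.92, and the order of the pair was opposite in PEF and in both piPSC groups.

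**Figure D2:**
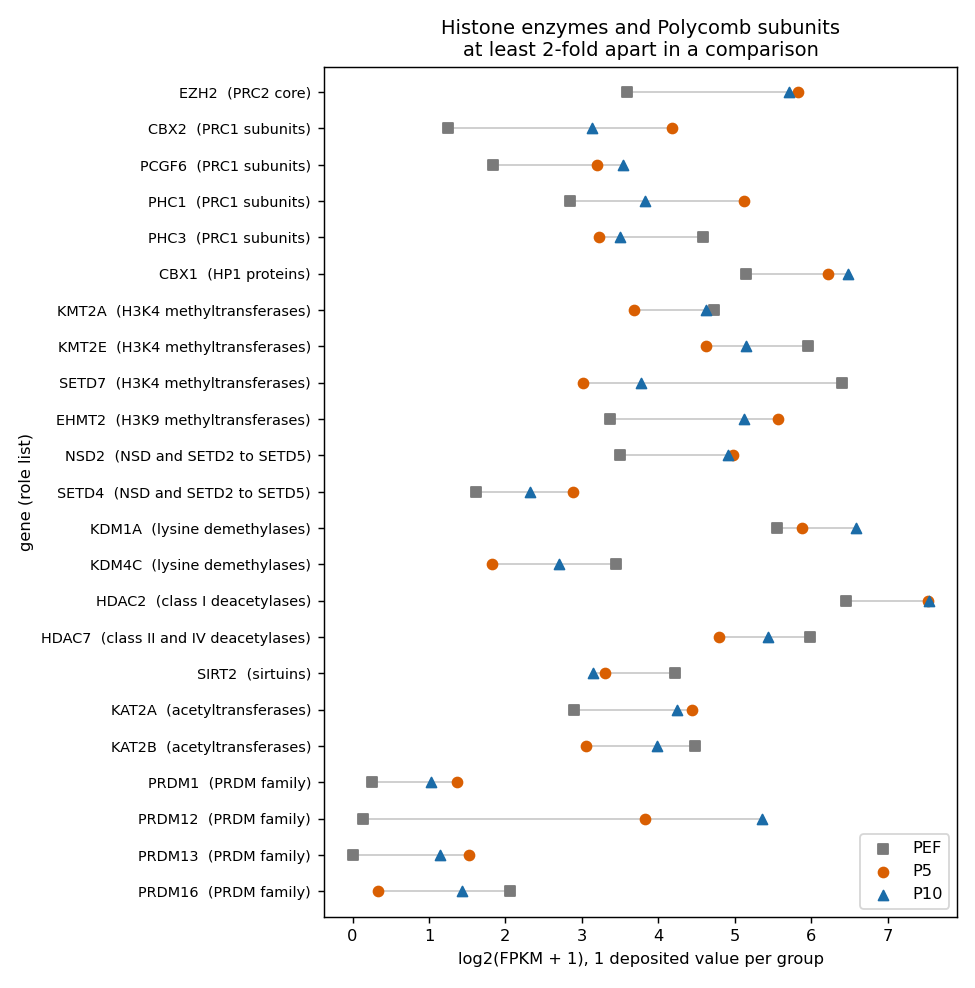
The horizontal axis gives log2(FPKM + 1) for 23 of the 25 members called higher or lower in at least 1 comparison. Each has 1 deposited value per group (grey square PEF, orange circle P5, blue triangle P10) and its role list in brackets. EZH2, NSD2, HDAC2 and KAT2A have both piPSC values close together above PEF, whereas KMT2A, HDAC7 and KAT2B have P10 between P5 and PEF.

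Differences from PEF among the methyltransferases of lysine 4 of histone H3 ran from -3.39 to 0.78 in P5 and from -2.63 to 0.33 in P10. Of 6 genes with a row, 3 were lower and 0 higher in P5, with a median of -0.66. In P10 1 was lower, with a median of 0.00. The lower shares of all IDs compared were 19.6% and 19.3%. SETD7, a monomethyltransferase that also modifies non-histone proteins (ENSSSCG00000030396, chromosome 8, 93131209 to 93169346), was at 83.6 in PEF, 7.07 in P5 and 12.6 in P10. The differences were -3.39 and -2.63, the lowest among the members in both comparisons with PEF. In PEF SETD7 was the second most abundant member after HDAC2.

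KMT2E, a family member known more for reading than for writing methylation, was at 61.4, 23.7 and 34.5, with -1.34 and -0.81. KMT2A, the trithorax methyltransferase MLL, was at 25.6 in PEF, 11.8 in P5 and 23.6 in P10, so P10 was close to PEF. Its difference of -1.05 in P5 minus PEF was just past the limit. KMT2B and SETD1A, which methylate lysine 4 at promoters, were within the limit, at 6.50, 10.6 and 7.19 and at 8.33, 14.99 and 10.7. KMT2C, whose locus in the table spans only 12.3 kb, was at 11.7, 9.50 and 12.6.

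Of the methyltransferases of lysine 9, EHMT2 (G9a), the enzyme that places dimethylation in euchromatin (ENSSSCG00000001420, chromosome 7, 27819351 to 27834344), stood apart. It was at 9.34 in PEF, 46.4 in P5 and 33.7 in P10, higher by 2.20 and 1.75. SETDB1, which silences retroelements, was at 7.10, 8.16 and 8.43, and SETDB2 at 4.29, 4.03 and 5.71. PRDM2 was at 4.46, 6.59 and 5.92, so these 3 were within 0.47 of PEF in both piPSC groups. SUV39H2, which places trimethylation in heterochromatin, was listed at 0.199, 0.828 and 0.491 and not compared. SUV39H1 and EHMT1 were not analysed here.

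The list of NSD enzymes and SETD2 to SETD5 had 2 of 7 members higher and 0 lower in P5 minus PEF. In P10 minus PEF it had 1 higher. The higher shares of all IDs compared were 21.4% and 19.1%. NSD2, a dimethyltransferase of lysine 36, was at 10.3 in PEF, 30.6 in P5 and 29.1 in P10, higher by 1.49 and 1.42, at a locus shared by 8 IDs. Its paralog NSD1 was at 12.2, 21.8 and 22.6, while NSD3 was at 22.3, 12.8 and 26.6 and so lowest in P5. SETD2, which trimethylates lysine 36, was at 33.4, 19.4 and 21.9, with -0.75 and -0.59. SETD4, a less studied methyltransferase, was at 2.06, 6.41 and 4.01 and was called in P5 alone, at 1.28. SETD5 was at 44.1, 38.0 and 71.5, a difference of 0.89 in P10 minus P5. KMT5A, the monomethyltransferase of histone H4 lysine 20, was at 47.7, 68.4 and 61.3.

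Few lysine demethylases were called. Of 14 genes with a row, 1 was lower and 0 higher in P5 minus PEF, with a median of 0.00. In P10 minus PEF 1 was higher and 0 lower, with a median of 0.35. The shares of all IDs called in these comparisons were 41% and 38.5%. KDM4C, a demethylase of trimethylated lysine 9 (chromosome 1, 240665777 to 240997143), was at 9.94 in PEF, 2.54 in P5 and 5.51 in P10. Its difference was -1.63 in P5 and -0.75 in P10, with P10 between the other groups. KDM1A (LSD1), which removes methyl groups from lysine 4 and works with the CoREST corepressors, was at 45.9, 57.8 and 95.5. Only P10 passed the limit, at 1.04, and the locus is shared by 2 IDs.

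The other 12 demethylases were within 0.73 of PEF in both piPSC groups. KDM5B, a lysine 4 demethylase, was the most abundant of these at 36.5, 37.5 and 50.1. KDM3A and KDM3B, which act on dimethylated lysine 9, were at 20.8, 14.9 and 13.8 and at 24.9, 24.1 and 36.7. The demethylases of lysine 27 were low, KDM6A (UTX) at 3.79, 4.12 and 4.52 and KDM6B (JMJD3) at 1.87, 3.46 and 3.17. Together the KDM6 pair summed to 5.66, 7.58 and 7.69, against 23.8, 62.2 and 65.0 for EZH1 and EZH2, which place the mark that the pair removes.

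Of 8 acetyltransferases with a row, 1 was higher and 1 lower in P5 minus PEF, against 21.4% and 19.6% of all IDs. The 2 acetyltransferases were paralogs. KAT2A (GCN5), a catalytic subunit of the SAGA coactivator, was at 6.45 in PEF, 20.8 in P5 and 18.0 in P10, higher by 1.55 and 1.35. KAT2B (PCAF), which takes the same place in the complex, was at 21.4, 7.34 and 14.8, with differences of -1.42 and -0.50 from PEF. As deposited, the sum of the pair was nearly level, at 27.8, 28.1 and 32.8. Such a sum depends on the column scaling. The scaling without mitochondrial genes multiplied PEF by 0.852, P5 by 1.16 and P10 by 1.037. EP300 (33.7, 30.1 and 29.1) and CREBBP (27.3, 21.7 and 26.2), the general coactivators that mark enhancers, stayed within 0.32 of PEF. KAT7 was at 13.1, 19.8 and 22.7, KAT14 at 14.7, 20.8 and 20.3, KAT5 at 6.75, 10.4 and 8.30 and KAT6B at 16.7, 10.7 and 9.02, none past the limit.

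HDAC2, a class I deacetylase of the SIN3, NuRD and CoREST complexes (ENSSSCG00000004432, chromosome 1, 89928272 to 89963141), was the most abundant member in every group. It was at 87.0 in PEF, 184 in P5 and 185 in P10, higher by 1.07 and 1.08 and level between the piPSC groups. HDAC3, which works with the NCOR corepressors, was at 23.8, 30.8 and 27.2, and HDAC8 at 3.66, 2.49 and 4.31. Among the class II and IV enzymes, HDAC7, which shuttles between nucleus and cytoplasm, was at 62.5, 26.6 and 42.4, with differences of -1.20 in P5 and -0.55 in P10. Its listed locus spans 2.0 kb. HDAC5 was at 31.6, 17.1 and 20.7, with -0.85 and -0.59. HDAC4, HDAC6, HDAC10 and HDAC11 were below 5 FPKM in all 3 groups.

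Of 5 sirtuins, the NAD-dependent deacylases, 0 were called in P5 minus PEF and 1 was lower in P10 minus PEF. The shares of all IDs called were 41% and 38.5%. SIRT2, a mainly cytoplasmic deacetylase, was at 17.7, 8.84 and 7.85, with -0.92 and -1.07, at a locus shared by 5 IDs. SIRT1, a nuclear deacetylase of histones and p53, was at 15.4 in PEF, 24.1 in P5 and 12.1 in P10, a difference of 0.61 from PEF in P5 and of -0.94 in P10 minus P5. SIRT3, SIRT4 and SIRT6 were below 8 FPKM and were not called.

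**Figure D3:**
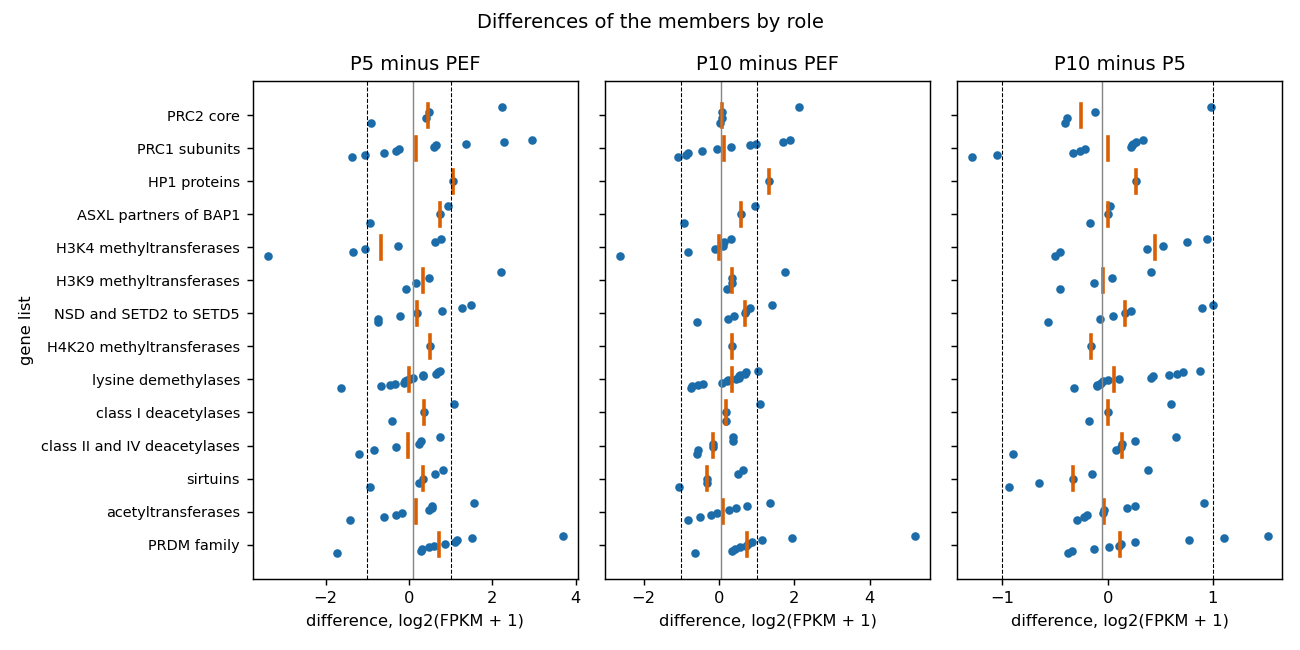
Each blue point is a compared member at its difference in log2(FPKM + 1) by role list (PRDM2 stands in both the lysine 9 and the PRDM list), with the list median in orange, the median of all IDs compared as a grey line and dashed lines at a difference of 1. In P10 minus P5, 4 points lie outside the dashed lines.

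The PRDM proteins join a methyltransferase-like domain to zinc fingers and act largely as transcription factors of particular lineages. Of 12 with a row, 10 were compared. In P5 minus PEF 4 were higher and 1 lower (median 0.73), against 21.4% and 19.6% of all IDs compared. In P10 minus PEF 3 were higher and 0 lower (median 0.74), against 19.1% and 19.3%. Of the PRDM genes higher in P5, PRDM1, PRDM12 and PRDM13 were below 1 FPKM in PEF. These passed the filter only through the piPSCs, so their being called is partly fixed by the filter.

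PRDM12, a regulator of sensory neuron development (ENSSSCG00000005703, chromosome 1, 304646520 to 304662114), was at 0.0982 in PEF, 13.2 in P5 and 39.8 in P10. Its differences of 3.69 and 5.22 were the highest among the members in both comparisons with PEF, and P10 was 1.52 above P5. PRDM13, a neural factor of the dorsal spinal cord and retina in mouse, was listed at 0 in PEF and at 1.87 and 1.22 in the piPSCs. PRDM1 (BLIMP1), a repressor needed for germ cell and plasma cell fates, was at 0.198, 1.58 and 1.04 and was called in P5 alone.

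PRDM16, a regulator of brown fat and neural stem cells, was lowest in P5, at 3.19 in PEF, 0.261 in P5 and 1.71 in P10. It was called lower in P5 than PEF at -1.73 and higher in P10 than P5 at 1.10, with all values low and the locus shared by 2 IDs. The other compared PRDM genes, PRDM2, PRDM4, PRDM10, PRDM11 and PRDM15, were within 0.87 of PEF. The neural markers also differed between the groups. Of the 8 with a row, 6 were higher in P5 and 6 in P10 than in PEF, and 5 were higher in P10 than in P5. The higher shares of all IDs compared were 21.4%, 19.1% and 7.57%. ELAVL3 was below 1 FPKM in PEF and passed the filter only through the piPSCs. The part of the neural markers in the PRDM values was not tested.

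Several differences above were opposite within a family, and FPKM is scaled to gene length, so shares of a family's summed FPKM could be compared. A single scaling factor per column leaves these shares as they are, and they were not computed under quantile normalization. The 16 families were drawn up after the values were seen and hold only genes with a row. A share moved by at least 20 percentage points between PEF and P5 in 5 of the 16 families, between PEF and P10 in 3 and between P5 and P10 in 0.

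EZH2 took 46.3% of the EZH sum in PEF, but 89.8% in P5 and 79.2% in P10. Of the KAT2 sum, KAT2A took 23.2% in PEF, but 73.9% in P5 and 54.9% in P10. The PHC1 share of the PHC sum was 8.67% in PEF, but 48.5% in P5 and 28.6% in P10. In each of these 3 families the P10 share lay between those of PEF and P5.

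ASXL1 took 37.1% of the ASXL sum in PEF, but 66.4% in P5 and 67.3% in P10, level between the piPSC groups. In the NSD family NSD3 held 49.8%, 19.7% and 34.0% in PEF, P5 and P10, and NSD2 held 22.9%, 46.9% and 37.1%. Just under 20 points were PHC, with 19.9 in P10 minus PEF and in P10 minus P5, and KAT2, with 19 in P10 minus P5. Of the families under 20 points in every comparison, KDM3 had a largest move of 18.2 points and PCGF of 17, both in P10 minus PEF. KDM4 had one of 16.9 and KMT2 of 15.7, both in P5 minus PEF. Some other families moved by less. RING1 took 68.4%, 69.1% and 60.1% of the RING sum, EP300 55.2%, 58.1% and 52.7% of the sum with CREBBP, and KDM5B 82.2%, 86.1% and 85.5% of the sum with KDM5A. HDAC7 held 63.8%, 56.9% and 63.7% of the class IIa sum of HDAC4, HDAC5 and HDAC7, while that sum was 98.1, 46.8 and 66.5. Shares rest on 1 value per gene and group, and EZH1, PHC3, ASXL2 and NSD2 lie at shared loci. So do RNF2, EP300, KDM5A, KDM5B and KMT2B.

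**Figure D4:**
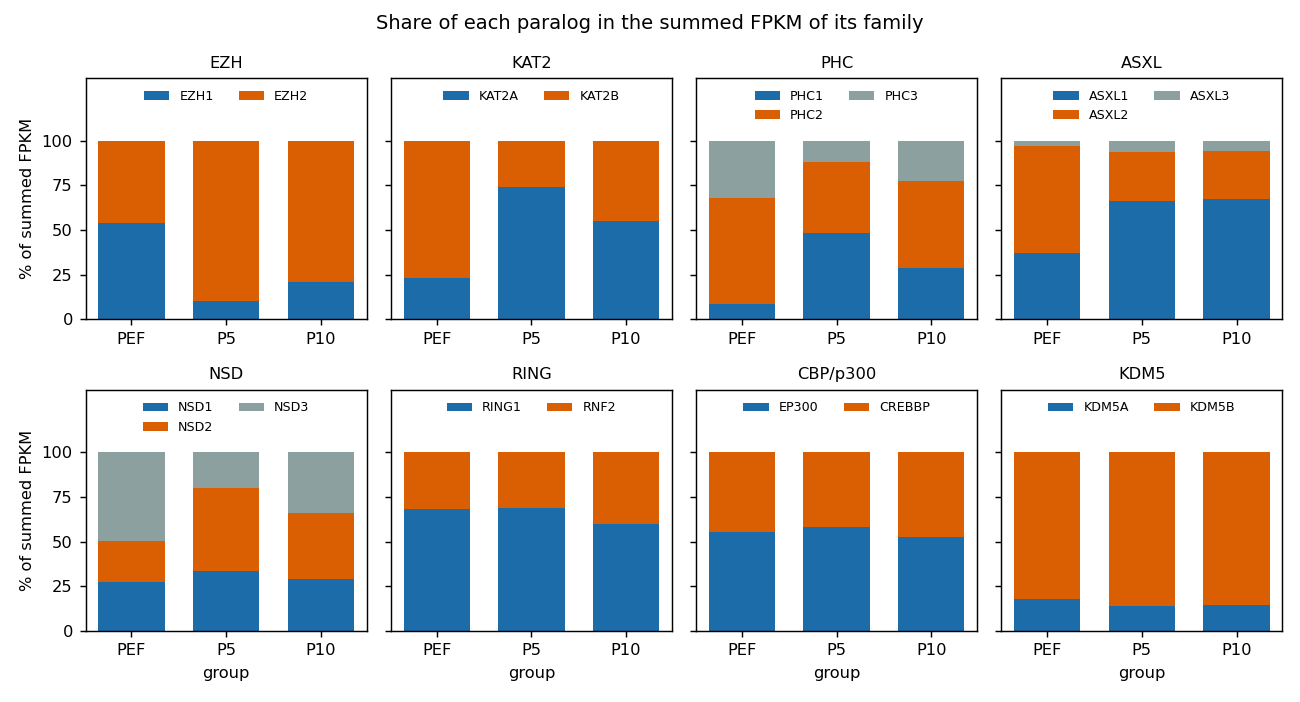
Stacked bars give each paralog's percentage of the summed FPKM of its family in PEF, P5 and P10, for the 5 families in which a share moved by at least 20 points between PEF and P5 and for RING, CBP/p300 and KDM5, in which it did not. EZH2, KAT2A and PHC1 have their largest share in P5 and an intermediate one in P10.

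P10 was set against P5 to compare the later Rex1 negative with the earlier Rex1 positive cells. The 4 members called were PRDM12 and PRDM16, higher in P10, and PHC1 and CBX2, lower in P10. The nearest members outside the limit were NSD3 at 0.998 and EZH1 at 0.99 on the higher side and SIRT1 at -0.94 and HDAC10 at -0.90 on the lower side. HDAC10, a polyamine deacetylase, was at 0.824, 2.04 and 0.635.

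Levels were also placed by the group that stood off from both others by at least 0.5, a margin chosen after the data were seen. P5 was below both PEF and P10 for 9 members, 11.1%, against 8.39% of all IDs: KDM4C, NSD3, EZH1, PRDM16, KMT2A, KAT2B, HDAC7, KMT2E and SETD7. P5 was above both for 5 members, 6.17%, against 13.9% of all IDs: PHC1, HDAC10, SIRT1, CBX2 and SETD4. P10 was above both for 6 members, 7.41%, against 11.6%, among them KDM1A, PRDM12, SETD5, KDM3B and KDM7A. P10 was below both for 0 members, against 8.96% of all IDs. PEF was below both for 24 members, 29.6%, against 24.2%, and above both for 15, 18.5%, against 24.6%.

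Genes whose products work in complexes with the members were taken from lists of partners. COMPASS and MLL complex subunits, which assemble the KMT2 and SETD1 enzymes, had 10 of 11 genes with a row. Of these 6 were higher and 1 lower in P5 minus PEF (median 1.12), and 1 was higher and 1 lower in P10 minus PEF (median 0.36). MEN1 (menin), which tethers KMT2A and KMT2B, was at 6.92 in PEF, 24.5 in P5 and 17.4 in P10. The scaffold HCFC1, at a locus shared by 3 IDs, was at 9.65, 31.9 and 16.3, and its paralog HCFC2 at 13.4, 1.54 and 2.58. PAXIP1 was at 2.99, 8.08 and 4.30. Of all IDs compared, 21.4% were higher in P5 minus PEF and 19.1% in P10 minus PEF.

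Accessory genes of PRC2 and PRC1 had 17 of 21 with a row. Of these, 3 were higher in P5 and 5 in P10 than in PEF, and 0 were lower in either. The shares of all IDs compared were 21.4% higher and 19.6% lower in P5 minus PEF, and 19.1% and 19.3% in P10 minus PEF. SCML2, a PRC1-binding protein of the germline in mouse, was at 0.806 in PEF, 6.65 in P5 and 14.8 in P10. It passed the filter of 1 FPKM only through the piPSCs, so its being called higher is partly fixed by the filter. MTF2, which recruits PRC2 to CpG islands, was at 10.2, 23.1 and 34.2, at a locus shared by 2 IDs. JARID2, another PRC2 cofactor, was at 20.5, 37.5 and 48.1, past the limit in P10 at 1.19. SFMBT2 was at 2.98, 1.35 and 8.05, a difference of 1.95 in P10 minus P5. L3MBTL2, of the variant PRC1 with PCGF6, was at 3.54, 10.1 and 6.17.

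Deacetylase complexes had 19 of 22 genes with a row. Of these, 3 were higher and 5 lower in P5 minus PEF, and 3 and 3 in P10 minus PEF. All IDs compared had 21.4% higher and 19.6% lower in the former, and 19.1% and 19.3% in the latter. RCOR2, the CoREST scaffold for KDM1A and HDAC2 in mouse embryonic stem cells, was at 6.54 in PEF, 42.9 in P5 and 36.6 in P10, with differences of 2.54 and 2.32. Its paralog RCOR3 was at 14.9, 5.90 and 8.04. CHD3, a NuRD ATPase at a locus shared by 2 IDs, was at 172, 41.0 and 35.2. MTA3, a NuRD subunit, was at 30.2, 104 and 89.6, and SIN3B, a scaffold for class I deacetylases, at 17.1, 5.03 and 6.96.

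**Figure D5:**
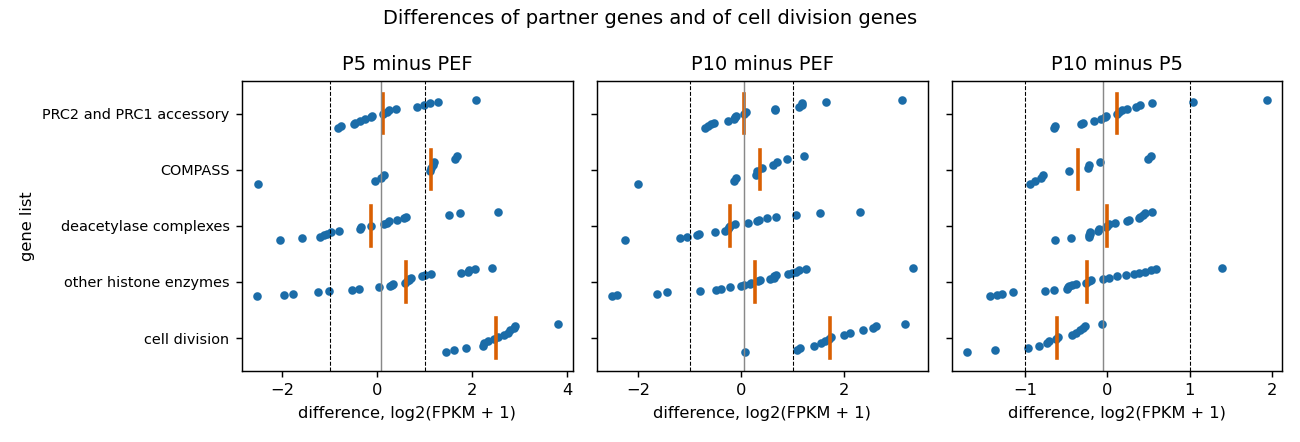
Each blue point is a compared partner gene at its difference in log2(FPKM + 1), by list, with the list median in orange, the median of all IDs compared as a grey line and dashed lines at a difference of 1. All 14 cell division genes lie right of the upper dashed line in P5 minus PEF, and 6 of 10 COMPASS genes do.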

How the data were processed

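The authors deposited 1 table of FPKM values with 1 column per group, per the file headers. The tools named are Bowtie2 2.0.6 and TopHat2 2.0.9, with the susScr3 build, per the submitters' processing notes. RNA came from RNeasy columns and libraries from a NEBNext Ultra kit, per the labels' protocols. How FPKM were computed, from which annotation, and how 2 libraries became 1 column is not given in the sources, and the depth is unknown.

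Symbols came from a table of IDs and symbols that matched 11804 IDs, 46.6%. Of the symbols the rule could take, 15 had an ID with no row here. Values were taken as log2(FPKM + 1), which understates differences of low genes, and described without a test, as the plan set out for 1 value per group (limma was planned for values per library). The calculations used Python 3.11.15, numpy 2.4.6 and pandas 2.3.3 and were checked on simulated data. Every member could be named, but a few are counted and not reported here. Values were given for members past the 2-fold limit in at least 1 comparison and for those near the limit. They were also given for the most abundant of each list. Some genes of most partner lists were named, not always those with the largest differences. Members and lists were chosen with earlier results of these data known. Alternatives were pseudocounts, filters, column scalings, a 4-fold limit, and leaving out IDs at shared loci or at 0. No protein, promoter or genome sequence was used here.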

Additional observations from a re-analysis of the deposited data

How the results depend on the processing

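No paired analysis was possible because each group had 1 deposited column, and leaving out a replicate was not run for the same reason. No called member reversed. In P5 minus PEF, 23 members were called (14 higher, 9 lower, median 0.304). A pseudocount of 5 gave 13 (8 and 5, median 0.172), and a 4-fold limit 6 (5 and 1). Scaling to a common sum without mitochondrial genes gave 26 higher and 4 lower (median 0.672). A filter at a mean FPKM of 5 gave a median of 0.186, beside -0.015 for all IDs. The shares of all IDs called were 41% as deposited, 23.2% with the pseudocount of 5 and 14.6% at the 4-fold limit. Under the scaling without mitochondrial genes 30.7% of all IDs were higher and 14% lower. In P10 minus PEF, 15 were called (12 higher, 3 lower, median 0.326). The 4-fold limit gave 3 (2 and 1). The lower count was 1 with a pseudocount of 5 (median 0.208), with quantile normalization and with shared loci left out. It was also 1 with the scaling without mitochondrial genes (median 0.571). Of all IDs, 38.5% were called as deposited and 14.5% at the 4-fold limit. The lower share of all IDs was 19.3% as deposited, 12.6% with the pseudocount of 5 and 18.5% with quantile normalization. It was 19.7% with shared loci left out and 15.2% with the scaling without mitochondrial genes. In P10 minus P5, 4 were called (2 and 2, median 0.041). A pseudocount of 0.1 gave 9 (6 higher), one of 5 gave 2 (1 and 1), quantile normalization 7 (5 higher), and the 4-fold limit 0 (0 and 0). The higher count was 5 under median scaling (1 lower), 4 under trimmed-mean scaling, and 1 with the mean FPKM filter, without shared loci, and among IDs at 5 FPKM or more in the higher group, a setting added after the data were seen. The scaling without mitochondrial genes gave 4 lower and a median of -0.104, beside -0.183 for all IDs. In P10 minus P5 the share of all IDs called was 16.1% as deposited. It was 24.4% with a pseudocount of 0.1, 6.27% with one of 5, 17.4% with quantile normalization and 2.67% at the 4-fold limit. Under median and trimmed-mean scaling it was 16.2%, with the mean FPKM filter 14.8% and without shared loci 16.3%. Among IDs at 5 FPKM or more it was 17%, and without mitochondrial genes 17.5%. The scaling without mitochondrial genes ended 7 calls of single members, quantile normalization 7, the pseudocount of 5 ended 16 and median scaling 1. The 4-fold limit ended 33. Calls were also gained: 19 with the scaling without mitochondrial genes, 9 with quantile normalization and 5 with median scaling. Trimmed-mean scaling added 4 and the pseudocount of 0.1 added 16, and both ended 0. The cause was not tested, except that a larger pseudocount shrinks low values by construction. With 1 value per group, differences near the limit are the least firm.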

Other observations

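Other histone enzymes were taken from a further list. Of 29 listed, 25 had a row and 24 were compared, with 7 higher and 5 lower in P5 minus PEF, 4 and 4 in P10 minus PEF, and 1 and 4 in P10 minus P5. That is 12, 8 and 5 of 24, against 41%, 38.5% and 16.1% of all IDs compared. Of 9 arginine methyltransferases compared, 5 were higher and 0 lower in P5 minus PEF and 2 higher in P10 minus PEF. The higher shares of all IDs compared were 21.4% and 19.1%. The 4 within the limit in P5, PRMT2, CARM1, PRMT7 and PRMT9, differed from PEF by 0.66, 0.71, 0.63 and 0.26. Of the 5 that were higher, 4 are described here. PRMT1, the main enzyme of asymmetric dimethylation, had an FPKM of 29.1 in PEF, 160 in P5 and 71.6 in P10, a difference of 2.42 from PEF in P5 and of -1.15 in P10 minus P5. PRMT3, which acts on a ribosomal protein, was at 3.76, 18.8 and 6.38, and PRMT6 at 1.37, 7.90 and 2.67, so both were highest in P5. PRMT8, a neuronal member of the family at a locus shared by 2 IDs, was at 0.158, 3.42 and 10.6 and so highest in P10. It passed the filter of 1 FPKM only through the piPSCs, so its being called higher is partly fixed by the filter.

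Lysine methyltransferases of this list differed in both directions. ASH1L, which methylates lysine 36 of histone H3, was at 11.7 in PEF, 2.27 in P5 and 3.11 in P10. SMYD2 was at 20.7, 5.38 and 3.08, and SMYD5 at 4.28, 9.21 and 3.04. SMYD3 was at 8.77, 18.7 and 20.4, or 1.01 and 1.13 above PEF, and DOT1L, which methylates the core of histone H3, was 0.31 and 0.90 above PEF, within the limit. HR (hairless), a demethylase-like corepressor of skin, was at 4.99 in PEF and at 0.0425 and 0.0540 in the piPSCs. It passed the filter of 1 FPKM only through PEF, so its being called lower is partly fixed by the filter.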
